A study of Mus musculus with 19 samples.

Results

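Alb, Ahsg, Trf, Apoe, Ttr and Apoc1 are 6 of the 46078 genes in the deposited table, and all code for proteins that circulate in blood plasma. The members were chosen by their measured values in these libraries, so their levels are given as a description with no test. Every member had exactly 1 row, found through the Ensembl identifier of its symbol. RNA-seq was performed on 19 libraries from female mice. The study's methods give a mixed FVB/C57/BALB/c background for the neu cohorts and do not name that of the normal mice. MG-WT are mammary glands of age-matched normal Wild Type mice (n = 3). MG-N are glands without lesions from tumor-bearing mice (n = 4), of which replicate 1 carried MMTV-neu and Fsp-Cre and replicates 2, 3 and 4 carried MMTV-neu and the heterozygous p53wm-R172H allele with no Cre. MG-NP glands (n = 4) and T-NP tumors (n = 4) carried MMTV-neu, p53wm-R172H/+ and Fsp-Cre, and T-N tumors (n = 4) carried MMTV-neu and Fsp-Cre. All groups except MG-WT therefore share the neu transgene, which the MMTV promoter drives in mammary epithelium, and the Fsp promoter places Cre, and with it the conversion to mutant p53, in fibroblasts. The names of T-NP replicates 1 and 2 share an animal number, so these tumors may come from a single mouse. Exact ages are not given in the sources used here.

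The liver secretes most plasma proteins. Albumin (Alb) carries fatty acids, hormones and other small molecules, transthyretin (Ttr) carries thyroid hormone and retinol-binding protein, transferrin (Trf) delivers iron to cells through the transferrin receptor, and fetuin-A (Ahsg) binds calcium phosphate and keeps mineral from precipitating. Apolipoprotein E (Apoe) directs lipoproteins to their receptors on cells, and apolipoprotein C1 (Apoc1) slows that uptake and inhibits lipid transfer. Outside the liver, macrophages make both apolipoproteins, and the mammary epithelium secretes transferrin into milk.

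On chromosome 5, Alb (ENSMUSG00000029368) spans 90460897 to 90476602 on the plus strand of GRCm38. Ahsg (ENSMUSG00000022868) lies on chromosome 16 from 22891277 to 22899449 on the plus strand. Trf (ENSMUSG00000032554) lies on chromosome 9 from 103204001 to 103230444 on the minus strand. Apoe (ENSMUSG00000002985) and Apoc1 (ENSMUSG00000040564) are minus-strand neighbours on chromosome 7, at 19696109 to 19699188 and 19689481 to 19692660, with 3449 bases between them. Ttr is ENSMUSG00000061808. All 6 are protein-coding genes. The gene model Gm20425, listed at 0 in every library, shares 2108 exon bases with Trf on the same strand, and Gm30505 shares 62 exon bases with Ahsg on the opposite strand. How reads in those stretches were assigned is not given in the sources used here.

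The promoter of Alb is a much-used model of liver-specific transcription, so the 250 bases before the RefSeq transcription starts (GRCm38.p6) of Alb, Ahsg and Apoe are shown, 5′ to 3′ in the direction of the gene. Capitals mark exact matches on either strand to the HNF1 motif GTTAAT, the CCAAT box CCAAT, the nuclear receptor motif AGGTCA and the FOXA motif TGTTTGC.
Alb, chr5:90460620-90460869, plus strand: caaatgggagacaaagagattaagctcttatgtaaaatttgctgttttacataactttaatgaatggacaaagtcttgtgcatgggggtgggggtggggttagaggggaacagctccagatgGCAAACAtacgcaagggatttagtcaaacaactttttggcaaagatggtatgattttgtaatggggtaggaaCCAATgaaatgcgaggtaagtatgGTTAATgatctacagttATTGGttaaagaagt
Ahsg, chr16:22891765-22892014, plus strand: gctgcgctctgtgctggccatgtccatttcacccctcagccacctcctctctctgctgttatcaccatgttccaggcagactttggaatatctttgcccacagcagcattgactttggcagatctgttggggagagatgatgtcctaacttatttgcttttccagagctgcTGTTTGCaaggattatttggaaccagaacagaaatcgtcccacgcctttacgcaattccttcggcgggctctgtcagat
Apoe, chr7:19699189-19699438, minus strand: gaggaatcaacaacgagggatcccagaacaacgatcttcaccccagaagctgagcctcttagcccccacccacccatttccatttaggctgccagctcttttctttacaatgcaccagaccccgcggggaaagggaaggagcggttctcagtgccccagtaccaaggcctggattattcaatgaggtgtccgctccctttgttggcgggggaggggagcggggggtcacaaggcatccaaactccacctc
The Alb window held GTTAAT from 32 to 27 bases before the RefSeq start, CCAAT on the printed strand from 56 to 52 and on the other strand from 15 to 11, and TGTTTGC on the other strand from 128 to 122. That RefSeq start lies 27 bases before the start of the gene model used for the coordinates above. Ahsg held TGTTTGC from 79 to 73 bases before the RefSeq start, which lies 738 bases inside the gene model used for the coordinates above. The Apoe window, 1 of 3 that RefSeq lists for the gene, held none of the 4 motifs. Of 32851 windows of the same length, 6.43% held GTTAAT, 33.8% CCAAT, 14.0% AGGTCA and 4.30% TGTTTGC. Trf, Ttr and Apoc1 are named only.

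The libraries held 20899152 to 27262440 reads on genes, except for the 3 MG-WT libraries, which held 54677315 to 62645459. Values are normalized counts, which are reads divided by 1 size factor per library. A library with 3 reads or fewer of a gene is said to be at the floor. The tissues differed in their cell type markers. The score of a marker list is the mean of log2(normalized count + 1) over its genes. For 9 white adipocyte markers, it was 4.53 to 5.88 in MG-WT, 14.7 to 15.1 in MG-N, 13.5 to 14.8 in MG-NP, 2.88 to 9.10 in T-N and 5.99 to 7.43 in T-NP. Adipoq, the adipocyte hormone adiponectin, averaged 11.7 ± 11.0 in MG-WT (SD, n = 3) against 40924 ± 4609 in MG-N (SD, n = 4). The glands labelled Wild Type thus had far lower fat marker levels than the other glands, while their score for 9 luminal epithelium markers, 13.4 to 13.7, was above the 10.5 to 11.6 of MG-N. The MG-WT libraries also differ in depth, and genotype, depth and fat content cannot be told apart in any comparison with them. In addition, MG-NP replicates 1, 2 and 4 held much skeletal muscle, with scores for 14 muscle markers of 14.0, 16.9 and 16.2 against 8.81 in replicate 3 and 4.03 to 9.56 in MG-N. In these bulk samples, fewer cells of a type and less RNA per cell cannot be told apart.

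**Figure D1:**
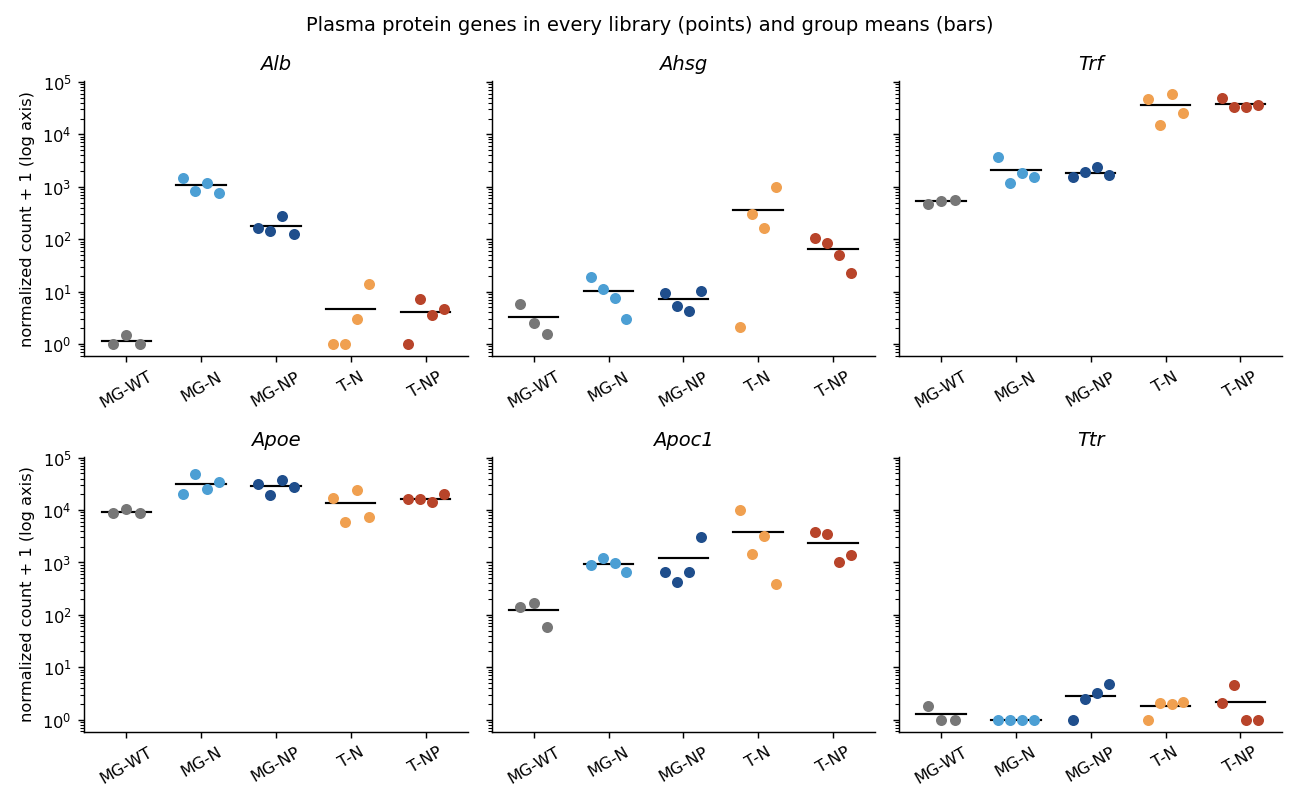
Each panel plots a member gene, with the normalized count + 1 on a log axis, 1 point per library and a bar at the mean of each group (MG-WT n = 3, the others n = 4). Alb was highest in MG-N and MG-NP glands, Trf and most Ahsg points were highest in tumors, and Ttr did not pass 3.87 normalized counts in any library.

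Alb was detected well above the floor in all 8 glands of tumor-bearing mice, and in tumors and MG-WT glands it was at or near the floor. In MG-N glands it measured 1484, 845, 1162 and 759 normalized counts in replicates 1 to 4 (mean 1062 ± 330, SD, n = 4). In MG-NP glands it measured 159, 140, 276 and 125 (175 ± 68.8, SD, n = 4). The highest MG-NP gland lay below the lowest MG-N gland, so these groups did not overlap, and all 8 glands lay above every tumor and every MG-WT gland. Alb values were 0, 0, 2.02 and 12.8 in T-N and 0, 6.10, 2.60 and 3.75 in T-NP, where the value of 12.8 stands for 11 reads. In MG-WT they were 0, 0.488 and 0, or 1 read in all 3 libraries together, although these were the deepest.

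Since every MG-WT library was at the floor for Alb, the folds against that group are lower bounds, computed with 3 reads in each MG-WT library. By this measure Alb was at least 742-fold higher in MG-N and at least 122-fold higher in MG-NP. On the log2(normalized count + 1) scale, the difference of Alb was -2.61 (SE 0.303) for MG-NP against MG-N, -8.66 (SE 0.796) for T-N against MG-N and -5.66 (SE 0.598) for T-NP against MG-NP. MG-N replicate 1, the gland that carries Fsp-Cre like the MG-NP glands, had the highest Alb of its group, and without it the difference between MG-NP and MG-N was -2.44. T-N and T-NP overlapped, and no fold is given between them, as most of their libraries were at the floor.

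The MG-N and MG-NP glands had both the highest Alb and the highest adipocyte scores, and genes of liver products went both ways. Within MG-N the orders differed, as replicate 4 had the highest score, 15.1, and the lowest Alb, 759 normalized counts. Within the 68 other plasma protein genes examined, 23 never reached 10 normalized counts in any library, among them the vitamin D binding protein Gc (highest value 5.17), the fibrinogen chain Fga (highest 6.46) and Hrg, which was at the floor in all 19 libraries. Of the 22 hepatocyte enzymes and transporters, 11 stayed below 10 in every library, including the urea cycle enzyme Cps1 (highest 9.04) and the bile acid enzyme Cyp7a1, which was at 0. Of 6 tested with limma, 4 rose and 1 fell (adjusted p under 0.05, at least 2-fold) in both MG-N and MG-NP against MG-WT. In T-N against MG-N and in T-NP against MG-NP, 1 of 6 rose and 4 fell. Over all genes, the shares that rose and fell were 19.1% and 17.9%, 16.4% and 16.2%, 12.8% and 22.3%, and 14.7% and 24%, in that order. Afp, the fetal relative of albumin that lies 14135 bases after Alb on chromosome 5, reached at most 23.7, and its further neighbour Afm at most 6.35. Others were well expressed, as 26 of the 68 plasma protein genes and 6 of the 22 hepatocyte genes reached 100 normalized counts in some library. In MG-N, for example, the hemoglobin scavenger haptoglobin (Hp) averaged 8688 ± 2611 and the protease inhibitors Serping1 and Serpinf1 averaged 5769 ± 2662 and 4949 ± 1983 (SD, n = 4), 3 genes named after their values were seen.

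Rbp4, the retinol carrier, averaged 27.0 ± 4.21 in MG-WT, 3452 ± 275 in MG-N and 1651 ± 854 in MG-NP (SD, n = 3, 4 and 4). Cyp2e1, an ethanol-oxidizing enzyme of liver and fat, averaged 44.4 ± 22.2, 17475 ± 5507 and 19744 ± 18421 in the same groups. Adipoq averaged 24432 ± 10274 in MG-NP (SD, n = 4), with a limma adjusted p of 0.376 against MG-N. Per 1000 normalized counts of Adipoq, Alb came to 18.2 to 31.8 in MG-N and 3.23 to 13.1 in MG-NP. MG-NP replicate 4 had the lowest Alb of all 8 glands, with an adipocyte score of 14.8 and a muscle score of 16.2. MG-NP replicate 3 had the highest Alb of its group, 276 normalized counts, and the lowest muscle score of its group, 8.81. With the skeletal muscle score as a covariate, the log2 difference of Alb for MG-NP against MG-N was -2.26, against -2.61 without it. The part of either tissue in the Alb levels was not tested.

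**Figure D2:**
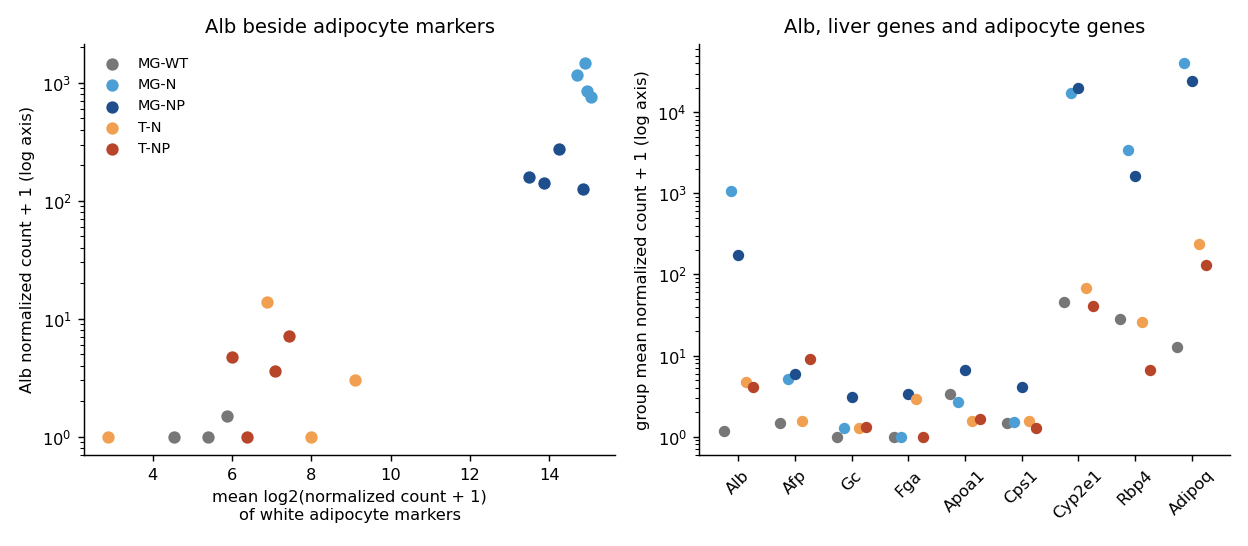
The left panel plots Alb (normalized count + 1, log axis) against the white adipocyte score of each library, and the right panel plots the group means of Alb, of the liver genes Afp, Gc, Fga, Apoa1 and Cps1, and of Cyp2e1, Rbp4 and Adipoq, in the colors of the left panel. The 8 MG-N and MG-NP glands lie apart at adipocyte scores of 13.5 and above, and the means of the 5 liver genes stay under 10 in every group. These 5 are a selection. In some library 26 of the 68 other plasma protein genes, with Rbp4, and 6 of the 22 hepatocyte genes, with Cyp2e1, reached 100.

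Ttr, the other carrier protein of the group, was not detected above the floor. It had 0 reads in all 4 MG-N glands and 0 to 3 reads in each of the other libraries, with the highest value, 3.87 normalized counts, in MG-NP replicate 4. A library of this depth with 0 reads allows up to 3, equal to 2.82 to 3.82 normalized counts in MG-N. No fold is given, because every group was at the floor.

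Trf, the transferrin gene, was far higher in tumors than in glands. Trf measured 476, 525 and 567 normalized counts in MG-WT (523 ± 45.5, SD, n = 3). It measured 3773, 1171, 1812 and 1560 in MG-N (2079 ± 1159, SD, n = 4) and 1502, 1921, 2374 and 1676 in MG-NP (1868 ± 378, SD, n = 4). Every MG-N and MG-NP gland was above every MG-WT gland, while the MG-N and MG-NP glands overlapped. In tumors Trf reached 46990, 14845, 60116 and 26040 in T-N (36998 ± 20372, SD, n = 4) and 49018, 33164, 33651 and 35801 in T-NP (37909 ± 7495, SD, n = 4). The lowest tumor lay above the highest gland, and the T-NP values all fell inside the T-N range.

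The mean of Trf was 17.8 times higher in T-N than in MG-N, a log2 difference of 4.10 (SE 0.489), and 20.3 times higher in T-NP than in MG-NP, a log2 difference of 4.34 (SE 0.190). Between the glands, the log2 difference was 1.85 (SE 0.347) for MG-N against MG-WT, 1.82 (SE 0.181) for MG-NP against MG-WT and -0.03 (SE 0.338) for MG-NP against MG-N. For T-NP against T-N it was 0.21 (SE 0.412). This last value and that of MG-NP against MG-N are within their errors.

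The milk protein genes were set beside Trf, and the groups differed in how the values were ordered. The score of the 8 milk protein markers was 13.9 and 14.1 in T-N replicates 1 and 3, the tumors with the most Trf, and 5.74 and 8.30 in replicates 2 and 4, the tumors with the least. In T-NP replicates 2, 3 and 4 the order was opposite, with scores of 13.4, 12.5 and 12.3 beside 33164, 33651 and 35801 normalized counts of Trf, while replicate 1 had the highest of both. In MG-NP, replicate 1 had the lowest Trf of its group at a score of 12.01. Within MG-N, replicate 1 had both the highest score, 13.5 against 6.27 to 8.74, and the highest Trf. T-N replicate 2 had more Trf than any gland, and its score lay below those of all glands. The part of the milk protein program in the Trf levels was not tested. Csn3, the gene of kappa-casein, averaged 216357 ± 133983 in T-N and 254736 ± 52196 in T-NP (SD, n = 4 each) against 10869 ± 17799 in MG-N. The normalized count of Trf divided by that of Csn3 was 0.148 to 0.214 in T-N and 0.134 to 0.177 in T-NP, against 0.1005 to 1.04 in MG-N and 0.236 to 1.04 in MG-NP. Within groups, the highest Trf was 4.05 times the lowest in T-N, 1.48 times in T-NP, 3.22 times in MG-N and 1.58 times in MG-NP. With group means subtracted, the genes most like Trf over the 19 libraries were the casein genes Csn1s2a (Pearson r = 0.92) and Csn2 (r = 0.90), followed by Npnt (r = 0.88). These correlations describe libraries that share a normalization and carry no test.

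**Figure D3:**
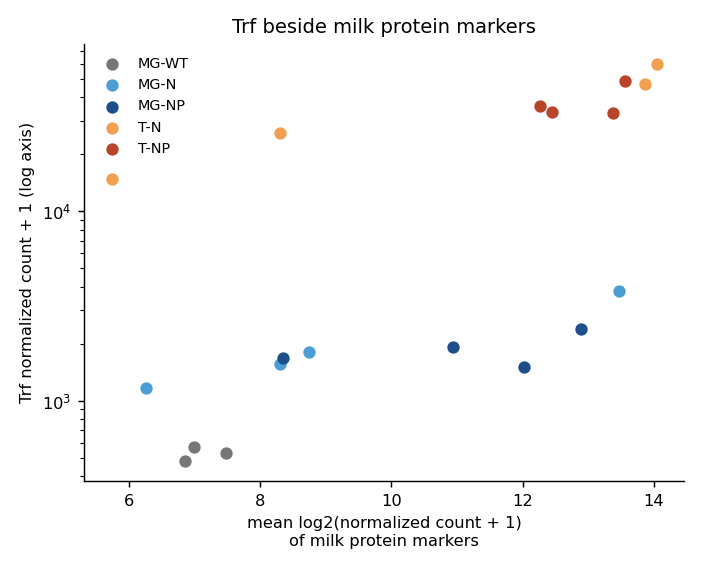
Each point is a library, with Trf (normalized count + 1, log axis) against the mean log2(normalized count + 1) of 8 milk protein markers. The 8 tumors lie above all glands, and within T-N the tumors at scores of 5.74 and 8.30 have less Trf than those at 13.9 and 14.1.

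The other genes of iron handling went in both directions. Of the 23 genes listed, 22 were tested in each comparison with limma, a gene being called at an adjusted p under 0.05 and at least a 2-fold difference. In T-N against MG-N, 2 rose and 6 fell, while over all genes tested 12.8% rose and 22.3% fell. Those that rose were Tfrc, the transferrin receptor (6917 ± 2479.9 against 1248 ± 496, SD, n = 4 each, limma adjusted p = 0.000353), and Meltf, a transferrin family member (2379 ± 1179 against 152 ± 125, adjusted p = 0.000916). Heph, a ferroxidase of iron export, fell by 4.44 on the log2 scale (SE 0.738, adjusted p = 0.00144), and the metalloreductase Steap4 fell by 3.90 (SE 0.276, adjusted p = 4.91e-05). In T-NP against MG-NP, 3 rose and 4 fell, beside 14.7% and 24% of all genes. Meltf rose again, by 4.34 (SE 0.421, limma adjusted p = 7.87e-05). Tfrc, carried over from the T-N comparison, was not among the 2 largest rises without overlap between groups here. It measured 4178 ± 1424 against 1563 ± 629 (SD, n = 4 each, limma adjusted p = 0.00675).

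Between glands, MG-N against MG-WT gave 9 that rose and 4 that fell of 22, where 19.1% of all genes rose and 17.9% fell. MG-NP against MG-WT gave 10 and 4 of 22, beside 16.4% and 16.2%. Tfr2, the second transferrin receptor, averaged 2.89 ± 0.743 in MG-WT, 99.1 ± 40.1 in MG-N and 44.6 ± 39.6 in MG-NP (SD, n = 3, 4 and 4), and the limma adjusted p was 4.76e-05 for MG-N and 0.0173 for MG-NP. Fth1, the heavy chain of ferritin, averaged 4134 ± 467 in MG-WT and 13701 ± 3141 in MG-NP, with a log2 difference of 1.70 (SE 0.203) and a limma adjusted p of 0.000816. Cybrd1, a ferric reductase, fell by 1.99 in MG-N (SE 0.452, adjusted p = 0.00572) and fell by 2.72 in MG-NP (SE 0.514, adjusted p = 0.00494).

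Ahsg was near the floor in glands and detected in 7 of 8 tumors. It measured 4.69, 1.46 and 0.517 normalized counts in MG-WT and 17.8, 10.3, 6.57 and 2.06 in MG-N. The MG-NP glands held 8.58, 4.28, 3.25 and 9.04, and no gland of these groups had fewer than 1 or more than 14 reads. In T-N it measured 1.14, 307, 166 and 987 (365 ± 433, SD, n = 4), so that replicate 1, with 1 read, was as low as the glands and replicate 4 held 846 reads. In T-NP it measured 105, 83.0, 49.4 and 21.2 (64.7 ± 37.0, SD, n = 4), all above every gland. The T-N tumors thus ran from 1 read, which is at the floor, to 846 reads, and no fold is given for that range.

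For T-NP against MG-NP the mean of Ahsg was 10.3 times higher, with a log2 difference of 3.04 (SE 0.546). In T-N against MG-N the mean was 39.7 times higher, with a log2 difference of 3.60 (SE 1.68), and the groups overlapped through T-N replicate 1. Without that tumor the log2 difference was 5.46, and without T-N replicate 4 it was 2.51. The difference between T-NP and T-N was -0.86 (SE 1.65), and it turned from -2.72 without T-N replicate 1 to 0.23 without T-N replicate 4. This difference was within its error, and both its sign and its size depended on single T-N tumors.

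Fetub, the gene of the related fetuin-B, starts 18885 bases after Ahsg on chromosome 16 (22918334 to 22939778). It measured 172, 3095, 2519 and 8249 in T-N and 455, 833, 553 and 528 in T-NP, against 2.93 to 5.68 in MG-WT. The MG-N glands held 590, 27.6, 5.63 and 1.03, and the MG-NP glands 11.4, 4.28, 7.58 and 22.0. T-N replicate 1 was the lowest and replicate 4 the highest tumor for both fetuins, and MG-N replicate 1 was the highest gland for both. Fetub rose in T-NP against MG-NP by 5.76 on the log2 scale (SE 0.448, limma adjusted p = 2.96e-05) and in T-N against MG-N by 6.39 (SE 1.77, adjusted p = 0.0158), although in the latter the groups overlapped. Between T-NP and T-N its log2 difference was -1.66 (SE 0.997, limma adjusted p = 0.737), and without T-N replicate 1 it was -2.79 (SE 0.405, adjusted p = 0.0446).

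The rest of the gene cluster varied. Hrg, the next gene, was at the floor throughout, and Kng2, a kininogen, averaged 337 in T-N, 43.3 in T-NP and 205 in MG-NP. On the other side, the chaperone gene Dnajb11 averaged 783 in MG-WT and 2716 in T-N. Over the 19 libraries, the genes most like Ahsg were Ppm1f (r = 0.90), 4930503L19Rik (r = 0.89) and Mgarp (r = 0.89), and Fetub ranked 8 of 14780 with r = 0.88. With group means subtracted, Smco4 came first (r = 0.95) and Fetub ranked 188 (r = 0.71).

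**Figure D4:**
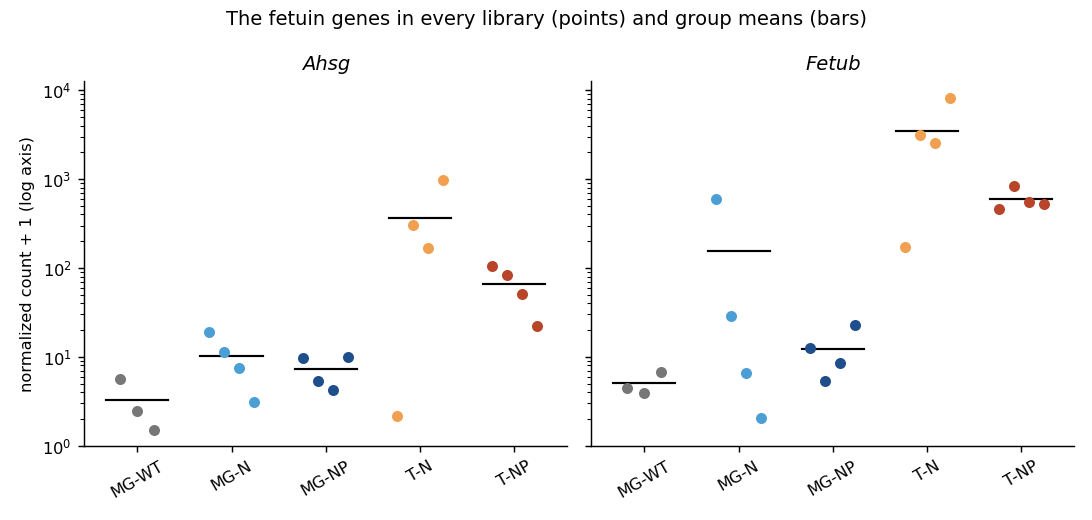
Normalized count + 1 of Ahsg (left) and Fetub (right) on a shared log axis, with 1 point per library and a bar at each group mean (MG-WT n = 3, the others n = 4). T-N runs from 1.14 to 987 for Ahsg and from 172 to 8249 for Fetub.

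Apoe was high in every library and highest in the glands of tumor-bearing mice. It measured 8728, 10372 and 8672 normalized counts in MG-WT (9257 ± 966, SD, n = 3). It measured 20086, 48663, 25175 and 33703 in MG-N (31907 ± 12504, SD, n = 4) and 31058, 19661, 37269 and 27954 in MG-NP (28985 ± 7324, SD, n = 4). These glands were all above the MG-WT glands and overlapped each other. In tumors it measured 17206, 6034, 24149 and 7518 in T-N (13727 ± 8533, SD, n = 4) and 15943, 16138, 14276 and 19872 in T-NP (16557 ± 2363, SD, n = 4). The T-N tumors reached from below all MG-WT glands to inside the MG-N range, and T-NP overlapped MG-NP by a single tumor.

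On the log2 scale, Apoe was higher by 1.71 (SE 0.281) in the MG-N group, and in the MG-NP group by 1.61 (SE 0.225), than in MG-WT. It fell by 1.36 (SE 0.472) from MG-N to T-N and fell by 0.78 (SE 0.220) from MG-NP to T-NP. Its difference was -0.10 (SE 0.317) for MG-NP against MG-N and 0.49 (SE 0.415) for T-NP against T-N, where the groups overlapped. With the skeletal muscle score as a covariate, Apoe in MG-NP against MG-WT came to 2.58. The muscle scores of these groups did not overlap, so that fit cannot tell muscle from group.

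Apoe broadly followed the mean score of the macrophage markers, with exceptions, while single markers went both ways. The score of the 17 markers was 6.997 to 7.46 in MG-WT, 8.998 to 10.02 in MG-N, 8.57 to 9.73 in MG-NP, 7.88 to 9.16 in T-N and 8.24 to 8.98 in T-NP. MG-N replicate 2 had both the highest score and the most Apoe, and T-N replicates 2 and 4 had the lowest scores and the least Apoe of the tumors. In contrast, MG-N replicate 1 had the least Apoe of its group at a score of 9.69, above the 8.998 of replicate 3. T-N replicates 2 and 4, at scores of 8.10 and 7.88, also had less Apoe than every MG-WT gland, where scores were lower. Clec4f, the marker of liver macrophages, was at the floor in all libraries. Of the single markers, limma called 13 of 16 higher and 1 lower for MG-N against MG-WT. For MG-NP against MG-WT the calls were 12 and 1 of 16. From MG-N to T-N, 1 of 15 rose and 6 fell. From MG-NP to T-NP, 3 of 16 rose and 5 fell, with a median log2 difference of -0.10 beside -0.07 over all genes. Cd14 went opposite to Apoe in each comparison. Its log2 differences were -1.05, -1.03, 1.62 and 1.41, in that order. Apoe divided by Csf1r, the receptor of macrophage growth factor, gave 3.99 to 9.74 over all 19 libraries. The macrophage gene Lyz2 (r = 0.94) was the gene most like Apoe over the 19 libraries, followed by Slc11a1 (r = 0.91) and Il11ra1 (r = 0.91). With group means subtracted these were Slc9a9, Tbxas1 (r = 0.92 each) and Slco2b1 (r = 0.91). The part of macrophage content in the Apoe differences was not tested.

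Apoc1 stood apart from its neighbour. It measured 139, 166 and 58.4 in MG-WT (121 ± 56.2, SD, n = 3) and 876, 1227, 964 and 666 in MG-N (933 ± 232, SD, n = 4). In MG-NP it measured 652, 425, 643 and 3051 (1193 ± 1243, SD, n = 4), and replicate 4 was far above the other MG-NP glands. In tumors it measured 10201, 1471, 3212 and 394 in T-N (3820 ± 4410, SD, n = 4) and 3805, 3418, 1011 and 1367 in T-NP (2400 ± 1415, SD, n = 4). All MG-N and MG-NP glands were above the MG-WT glands, but the tumor groups overlapped the glands and each other.

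The log2 difference of Apoc1 was 3.03 (SE 0.364) for MG-N and 2.95 (SE 0.696) for MG-NP against MG-WT. It was 1.195 (SE 0.835) for T-N against MG-N and 1.26 (SE 0.658) for T-NP against MG-NP. For MG-NP against MG-N it was -0.09 (SE 0.558), and -0.69 without MG-NP replicate 4. For T-NP against T-N it was -0.02 (SE 0.903), and it moved to 0.74 without T-N replicate 1 and to -0.82 without T-N replicate 4. Apoe divided by Apoc1 ran from 62.3 to 149 in MG-WT down to 1.69 to 19.1 in T-N. The T-N tumor with the most Apoc1, replicate 1, had a macrophage score of 8.30, below that of every MG-N gland. With group means subtracted, the gene most like Apoc1 was Plin2, a coat protein of lipid droplets (r = 0.90), followed by Orai3 and Txndc12 (r = 0.87 each). Of the other apolipoprotein genes of this cluster, Apoc4 was at the floor throughout and Apoc2 reached at most 37.5.

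**Figure D5:**
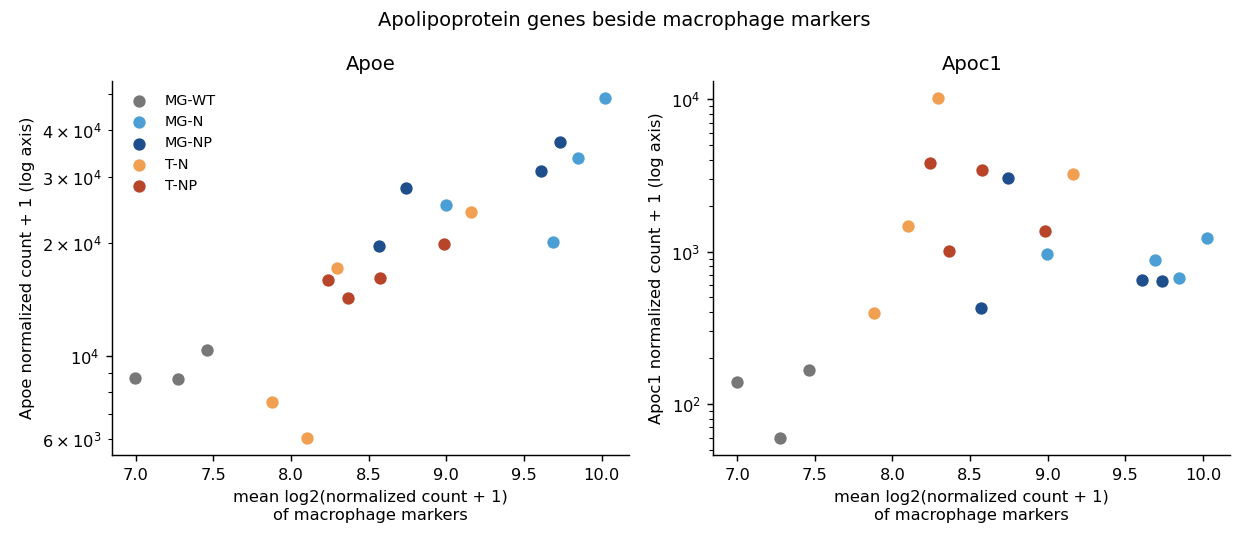
Apoe (left) and Apoc1 (right) of each library, as normalized count + 1 on log axes, against the mean log2(normalized count + 1) of 17 macrophage markers. Apoe is lowest at the low scores of MG-WT and T-N and highest in MG-N at a score of 10.02, while the Apoc1 maximum of 10201 is a T-N tumor at a score of 8.30.

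Among lipoprotein receptors, lipases and transporters, 10 of 22 tested genes rose and 2 fell in MG-N against MG-WT (limma), beside 19.1% and 17.9% of all genes. Lpl, the lipase of fat and muscle, averaged 84292 ± 13982 in MG-N and 1630 ± 490 in MG-WT (SD, n = 4 and 3, adjusted p = 1.46e-06), and its inhibitor Angptl8 rose by 6.93 on the log2 scale (SE 0.551, adjusted p = 2.94e-05). In MG-NP against MG-WT, 5 of 21 rose and 2 fell, beside 16.4% and 16.2%. In T-N against MG-N, 2 of 21 rose and 9 fell, beside 12.8% and 22.3%, and Lpl fell by 6.85 (SE 0.742, adjusted p = 0.000219) and Lmf1, which is needed for lipase maturation, rose by 1.05 (SE 0.147, adjusted p = 0.000672). In T-NP against MG-NP all 8 calls among 21 genes were falls, beside 14.7% of all genes that rose and 24% that fell, and Lpl fell by 6.50 (SE 0.380, adjusted p = 9.29e-06).

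Of the 15 genes for albumin uptake and retinol or thyroid hormone handling, 6 rose and 5 fell in MG-N against MG-WT, and 4 rose and 3 fell in MG-NP against MG-WT (limma). The shares over all genes were 19.1% and 17.9% in the former and 16.4% and 16.2% in the latter. Rbp7, an intracellular retinol carrier, rose from 55.7 ± 2.20 in MG-WT to 879 ± 211 in MG-N (SD, n = 3 and 4, adjusted p = 3.90e-06), and Amn, a partner of the albumin receptor cubilin, fell from 41.2 ± 10.1 to 8.30 ± 4.70 (adjusted p = 0.00991). In tumors, 2 of 14 rose and 6 fell in T-N, beside 12.8% and 22.3% of all genes, and 2 rose and 5 fell in T-NP, beside 14.7% and 24%. Aldh1a1, a retinoic acid forming enzyme, fell by 4.45 in T-N (SE 0.487, limma adjusted p = 0.000228) and fell by 5.84 in T-NP (SE 0.537, adjusted p = 6.18e-05).

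The 68 other plasma protein genes give the surroundings of the members. In MG-N against MG-WT, 34 could be tested, of which 13 rose and 8 fell (limma, beside 19.1% and 17.9% of all genes), with a median log2 difference of 0.56 beside 0.02 over all genes. Rbp4 rose by 6.96 (SE 0.146, adjusted p = 1.26e-07) and Pon1, an esterase of high-density lipoprotein, by 5.81 (SE 0.321, adjusted p = 5.04e-06). The fibrinogen chains Fgb and Fgg fell by 4.44 (SE 0.848, adjusted p = 0.00246) and 3.16 (SE 0.430, adjusted p = 0.000434). In MG-NP against MG-WT, 10 rose and 5 fell of 34, beside 16.4% and 16.2% of all genes, with a median of 0.16. The calls numbered 15, against 4 with the skeletal muscle score as a covariate and 9 without MG-WT replicate 3. The muscle score was 3.04 to 3.29 in MG-WT and 8.81 to 16.9 in MG-NP. The covariate fit therefore cannot tell muscle from group, and the part of muscle in these calls was not tested.

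In T-N against MG-N, 1 of 30 plasma protein genes rose, Fetub, which was named after its values were seen, and 14 fell, with a median log2 difference of -1.78 beside -0.05 over all genes. In T-NP against MG-NP, 4 of 29 rose and 14 fell, with a median of -2.09 beside -0.07. Of all genes, 12.8% rose and 22.3% fell in the first of these comparisons and 14.7% and 24% in the second. The 4 were Fetub, the complement factor Cfi (2.84, SE 0.482, limma adjusted p = 0.00133), and, named after their values were seen, Igfals (2.79, SE 0.379, adjusted p = 0.000419) and the copper protein Cp (1.71, SE 0.337, adjusted p = 0.00293). Rbp4 fell by 7.75 (SE 0.771, adjusted p = 0.000158) in T-N and fell by 7.99 (SE 0.569, adjusted p = 2.10e-05) in T-NP. Trf and Ahsg, like Fetub, were higher in tumors on average, whereas the falls outnumbered the rises among the listed genes in both comparisons.

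Between genotypes, none of these genes was called. In MG-NP against MG-N, limma called 0 of 33, with 2 at an unadjusted p under 0.05 and 0 by edgeR and by DESeq2. Over all 18563 genes tested limma called 0% as higher and 0% as lower, with 1950 at an unadjusted p under 0.05, and edgeR called 0 and DESeq2 654. In T-NP against T-N, limma called 0 of 24, with 1 at an unadjusted p under 0.05 and 0 by edgeR and by DESeq2. There 0.0361% of all genes were called higher and 0.00601% lower. The change from gland to tumor was also compared between the genotypes with an interaction term, for which limma called 0 of 34 genes, with 3 at an unadjusted p under 0.05.

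Counted over all 6 members, the values of 4 (Alb, Trf, Apoe and Apoc1) did not overlap between MG-N and MG-WT, and the same 4 did not overlap between MG-NP and MG-WT. Of all genes tested, 61.3% and 54.4% did not overlap in these comparisons. Alb alone did not overlap between MG-NP and MG-N, where 6.21% of all genes did not. Alb and Trf did not overlap between T-N and MG-N (49.2% of all genes), and Alb, Ahsg and Trf did not overlap between T-NP and MG-NP (52.6%). No member was free of overlap between T-NP and T-N (4.21%). The filter on low counts passed 4 members in the gland comparisons and in T-NP against T-N, and 5 in T-N against MG-N and T-NP against MG-NP. Nothing is read from these counts, because the members were selected on the same values.

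Compared per kilobase of exon, the order of the members changed with the tissue. In MG-N the mean normalized counts per kilobase were 14924 for Apoe, 1255 for Apoc1, 626 for Trf, 454 for Alb and 4.19 for Ahsg. In T-NP they were 11418 for Trf, 7744 for Apoe, 3226 for Apoc1, 29.5 for Ahsg and 1.33 for Alb. Apoe was thus the leading member in glands and Trf in tumors, and Alb passed from just below Trf in MG-N to the lowest of these 5 in T-NP. For Alb, the genes most alike over the 19 libraries were Aacs, a ketone body enzyme, Hspd1-ps4, a pseudogene of Hspd1, and the folate enzyme Aldh1l1 (r = 0.96 each). With group means subtracted, they were Usp30 (r = 0.82), Ddx6 and Ctnnb1 (r = 0.79 each). For Trf over all libraries they were 1810043G02Rik (r = 0.98), Tvp23b and Cnpy2 (r = 0.97 each), and for Apoc1 Uqcc3 (r = 0.92), Acadsb and Eef1akmt2 (r = 0.91 each). Points of these correlations share their groups, and reads of a pseudogene and its parent gene may be split between them.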

How the data were processed

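Total RNA of 19 mouse mammary glands and tumors was sequenced by the authors as paired ends on an Illumina HiSeq and aligned to GRCm38 with TopHat2 (version 2.1.1 per the labels) and bowtie2. The counting tool, its annotation and its strand setting are not given in the sources used here. The labels name a stranded total RNA kit and the study's methods an mRNA kit. The deposited table holds DESeq2-normalized counts, a signal in which the authors divided each library's reads by 1 size factor. All values (100%) came out as whole reads within 0.05 after the division was undone. Symbols matched 97.97% of identifiers.

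Groups followed the labels, and the study describes its samples as biological replicates. Library names carry separate animal numbers except for T-NP replicates 1 and 2, which share one. The members and gene lists were chosen with earlier results of these data known. Differences on log2(normalized count + 1) were fitted for 2 groups at a time with limma (version 3.58.1) in R (version 4.3.3), over genes with at least 10 normalized counts in as many samples as the smaller group, with Benjamini-Hochberg adjustment over all genes tested. A gene was called at an adjusted p under 0.05 and at least a 2-fold difference. Count models fitted to those whole reads (edgeR, version 4.0.16, and DESeq2, version 1.42.0), other pseudocounts, filters and scalings, a muscle covariate, the replicate block and leaving out each replicate were alternatives. Scripts were tested on simulated data. Floors cover counting error only. Genes named from the lists were the 2 called genes of each list, comparison and direction that changed most without overlap between groups, and some of these are not reported here. Likeness was Pearson's r over 19 samples among 14780 genes with a mean of at least 50. Gene models are from GENCODE on GRCm38.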

Additional observations from a re-analysis of the deposited data

Results flagged for a closer look

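Of the 24 sets of 4 libraries formed by the 6 members and the 4 groups of that size, 4 had a library whose gap to its nearest neighbour, divided by the range of the set, was above Dixon's critical value at the 95% level, which about 1 in 20 sets pass by chance. The members were selected on these values, so the ratios only describe which libraries lie apart and are no test. Apoc1 in MG-NP replicate 4 was 3051 normalized counts (gap over range 0.914). Trf in T-NP replicate 1 was 49018 (0.834). Alb in T-N replicate 4 was 12.8, from 11 reads (0.843). Ttr in T-N replicate 1 was 0 (0.865), where the other T-N tumors had 1 read each, so this last gap is within counting error.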

How the results depend on the processing

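For the members, 468 alternative values stayed within the spread between replicates and 13 moved further, of which 8 were Alb against MG-WT under another pseudocount or a count tool and 5 came from the skeletal muscle covariate. Many of these values could not have moved further. Leaving out 1 replicate shifts a group mean by less than that spread. Another filter or a single fit of all groups leaves the estimate as it was. The tally is therefore no measure of how firm the differences are. Calls among the other plasma protein genes in MG-NP against MG-WT numbered 15. With the muscle covariate there were 4 (Cfb, F10, F7 and Rbp4), in a fit that cannot tell muscle from group. When 1 replicate was left out there were 9 to 16, the 9 being without MG-WT replicate 3. In T-NP against T-N there were 0, and 0 to 1 when 1 replicate was left out, the 1 being Fetub without T-N replicate 1. With the replicate block the counts were 18, 12, 0, 14, 19 and 0, against 21, 15, 0, 15, 18 and 0 without it, in the order MG-N and MG-NP against MG-WT, MG-NP against MG-N, T-N against MG-N, T-NP against MG-NP and T-NP against T-N. For same-numbered libraries, 3 of 22 correlations of their deviations from group means were above 0.1 (range -0.253 to 0.329). These deviations also hold differences in tissue content, so they cannot decide whether such libraries pair. The library names give same-numbered libraries different animal numbers. Over all genes, DESeq2 on recovered reads called 654 in MG-NP against MG-N and 100 in T-NP against T-N, where limma called 0 and 7. TMM scaling moved the median of all genes by 0.10 in T-NP against MG-NP, and scaling to total reads moved the median of all genes by -0.16 in MG-NP against MG-N and by -0.11 in T-N against MG-N. Depth limits Ttr, and Alb in tumors and MG-WT, to statements at the floor. The cause of these changes was not tested.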

Other observations

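Fibroblast markers also differed between the glands. Of 8, limma called 7 higher in MG-N and 4 higher in MG-NP than in MG-WT, with median log2 differences of 2.38 and 1.19. Of all genes, 19.1% and 16.4% were called higher in these comparisons. T-N replicate 2, named after its values were seen, held 9703 normalized counts of the fibrinogen chain Fgg, against at most 1067 in any other library, and 97772 of the lipid-binding chaperone Clu.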
